A study of Homo sapiens with 3 samples.

Results

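Far intergenic EP300 peaks are the sites of this coactivator that lie between genes and over 50 kb from the nearest annotated transcript start. They were taken from the 2 deposited peak tables as peaks that the authors' ChIPseeker annotation calls Distal Intergenic, with a distance of more than 50 kb in either direction, on chromosomes 1 to 22 and X. Replicate 1 held 2684 such peaks of 65276 in all (4.11%, Wilson 95% interval 3.96 to 4.27), and replicate 2 held 2625 of 64896 (4.04%, 3.90 to 4.20), a mean of 4.08% ± 0.0473 (SD, n = 2). Overlapping peaks of both replicates were merged into reproducible regions, and 1639 of 46263 such regions held far intergenic peaks and no peak of another class. Another 18 regions mixed far peaks with intergenic peaks nearer to a gene, and 3 mixed them with other classes.

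The peaks come from chromatin immunoprecipitation with sequencing (ChIP-seq) of EP300 in H9, an established human embryonic stem cell line. The 3 samples were 2 EP300 samples and 1 input without antibody, so the EP300 samples form 1 group. All were wild type (WT) naive cells in PXGL, that is N2B27 medium with PD0325901, XAV939, Gö 6983 and human LIF at 10 ng/mL, on a feeder layer of mouse embryonic fibroblasts, and were crosslinked with formaldehyde. Whether these 2 samples were separate cultures is not stated, and their spread may therefore be technical. The tables give no read counts, so depth is unknown.

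EP300 is a histone acetyltransferase that transcription factors recruit to DNA, where it acetylates histone tails such as lysine 27 of histone H3. It sits at active promoters and at enhancers, short stretches of DNA that can act on a promoter from a long distance. Enhancers of developmental genes often lie in large gene-poor intervals, and EP300 occupancy has been used to map enhancers in embryonic stem cells.

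The sequence under each summit was not analysed here. Sequence was read where a RefSeq promoter window (250 bases before to 50 after a gene's start, GRCh38.p14) overlapped a far intergenic region. Of 34961 windows, 21 overlapped 20 of these regions, and all 21 belonged to long non-coding RNA (lncRNA) gene models. They are start sites in the RefSeq models, although the authors' annotation has no transcript start within 50 kb of the peaks. The 4 windows printed here held a summit and lie in a region ranked above the 75th percentile, and they are shown because they cover EP300 summits of strong far intergenic regions. They lie at chr10:108466348-108466647 (minus strand), chr19:30719645-30719944 (minus), chr5:171494546-171494845 (plus) and chr2:129587649-129587948 (minus), in the order of the lines. Each is written 5′ to 3′ on the gene's strand, and capitals mark matches to the 10 motifs searched.
LOC105378477: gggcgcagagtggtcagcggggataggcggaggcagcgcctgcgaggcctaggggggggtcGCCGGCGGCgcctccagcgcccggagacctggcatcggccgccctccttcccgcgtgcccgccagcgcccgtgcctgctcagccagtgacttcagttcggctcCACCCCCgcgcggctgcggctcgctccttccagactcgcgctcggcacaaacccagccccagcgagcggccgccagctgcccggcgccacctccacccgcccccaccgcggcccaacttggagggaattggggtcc
LOC105372354: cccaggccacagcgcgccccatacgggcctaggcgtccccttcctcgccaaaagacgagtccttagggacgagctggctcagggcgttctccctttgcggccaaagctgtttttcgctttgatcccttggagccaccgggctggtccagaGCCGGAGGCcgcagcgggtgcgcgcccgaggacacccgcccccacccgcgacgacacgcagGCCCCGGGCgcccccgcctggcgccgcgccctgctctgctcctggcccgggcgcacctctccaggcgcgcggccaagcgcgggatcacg
LOC105377720: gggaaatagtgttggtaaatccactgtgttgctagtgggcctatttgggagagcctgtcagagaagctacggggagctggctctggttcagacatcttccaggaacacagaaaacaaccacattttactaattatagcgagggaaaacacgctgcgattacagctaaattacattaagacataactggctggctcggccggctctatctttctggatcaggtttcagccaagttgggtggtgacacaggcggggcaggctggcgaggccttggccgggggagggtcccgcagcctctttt
LOC105373614: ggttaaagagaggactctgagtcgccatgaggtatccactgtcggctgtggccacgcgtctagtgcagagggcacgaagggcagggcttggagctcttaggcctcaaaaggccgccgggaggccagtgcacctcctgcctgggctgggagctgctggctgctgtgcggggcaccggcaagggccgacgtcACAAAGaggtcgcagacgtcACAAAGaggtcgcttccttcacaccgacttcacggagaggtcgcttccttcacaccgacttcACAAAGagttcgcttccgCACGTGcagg

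The LOC105378477 window lies in the most enriched far intergenic region of all, and its start site almost coincides with the EP300 summits. The summits lay 48 bp upstream of the start in replicate 1 and 24 bp upstream in replicate 2. The window was 75.7% G or C, held 35 CpG dinucleotides and had 1 match to the KLF motif and 1 to the TFAP2 motif. In the LOC105372354 window, the summits lay 112 bp upstream in replicate 1 and 150 bp upstream in replicate 2, with 36 CpG and 2 matches to TFAP2. Its region had fold enrichment 17.3 in replicate 1 and 21.4 in replicate 2. The nearest RefSeq coding gene, ZNF536, lay 5.57 kb from that region, so the region was not remote from coding genes. LOC105377720 had summits 43 bp downstream in replicate 1 and 94 bp downstream in replicate 2, 10 CpG and no motif match, in a region with fold enrichment 11.5 in replicate 1 and 10.3 in replicate 2. LOC105373614 had summits 48 bp upstream in replicate 1 and 94 bp upstream in replicate 2, and its window held ACAAAG 3 times and CACGTG once. The bases around the 3 ACAAAG matches resemble one another, so these matches may be copies within repeated sequence. The region around LOC105373614 had fold enrichment 8.29 in replicate 1 and 7.88 in replicate 2. Its nearest RefSeq coding gene was RAB6C, at 391 kb. For the LOC105377720 region it was FGF18, at 36.6 kb, and for the LOC105378477 region SORCS1, at 1285 kb.

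The 21 windows that overlapped far intergenic regions lay between lncRNA windows in general and windows that overlapped any EP300 region in base composition. The overlap ran from 36 to 300 bp, and some of the 21 windows held no summit of either replicate. The values below are of whole windows, so part of this sequence lies outside the EP300 regions. Their median was 61.0% G or C with 10 CpG, against 66.7% and 27 CpG for windows that overlapped any reproducible region, 50% and 5 CpG for all lncRNA windows, and 58.7% and 14 CpG for all windows. The motifs were searched on both strands, and matches of different motifs could overlap in principle but did not in the windows printed. The SOX-type ACAAAG was in 7 of the 21 windows (33.3%), against 16.1% of all windows and 20.3% of lncRNA windows, and the SOX-type ATTGTT in 3 (14.3%), against 10.1% and 14.7%. The TFAP2 motif GCCNNNGGC was also in 7 (33.3%), against 23.2% of all windows and 16.1% of lncRNA windows. KLF (GGGNGTG) was in 6 (28.6%), against 30% of all windows and 23.9% of lncRNA windows. AGATAA, a site of GATA factors, was in 4 (19.0%), against 10.3% and 14.5%, and the E-box CACGTG in 4 (19.0%), against 7.27% and 5.41%. TEAD (GGAATG) was in 3 (14.3%), against 14.0% and 17.1%, and the octamer ATGCAAAT in 1 (4.76%), against 1.77% and 1.97%. AP-1 (TGANTCA) was in 0 of 21, against 7.68% and 10.3%, and NR5 (AAGGTCA) in 0 of 21, against 3.92% and 5.13%. A count of 0 allows a share of up to 14.3% here, taken as 3 windows of 21. LOC105375955 gave overlapping windows in 1 region, at chr9:2288850-2289149 and chr9:2288966-2289265. Both held ACAAAG and AGATAA, so the counts of these motifs may include the same site more than once. With 21 windows these shares describe the windows at hand and not the other far intergenic regions.

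The strongest far intergenic regions are among the strongest EP300 sites of the genome. Regions were ranked by the lower of their 2 fold enrichment percentiles, where fold enrichment is the authors' own value of EP300 over input at the summit. Only regions found in both lists were ranked, so their presence in both replicates follows from that choice. Other classes also had strong peaks, with maxima in replicates 1 and 2 of 52.5 and 45.8 for intron peaks and 36.2 and 40.6 for promoter peaks. Intergenic peaks up to 50 kb from a start reached 38.1 and 33.1. The highest region, chr10:108465860-108466956, had fold enrichment 33.9 in replicate 1 and 34.9 in replicate 2, with -log10 q-values of 137 and 144. Its nearest gene in the authors' annotation was ENSG00000203434, at 94.9 kb, and its nearest RefSeq coding gene was SORCS1, a sortilin-family receptor, at 1285 kb. The next reproducible EP300 region was 150 kb away. It was thus among the 314 far regions (19.2%, against 6.19% of all regions) with a gap of over 100 kb.

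The second region, chr1:38270932-38272887, had fold enrichment 32.7 in replicate 1 and 28.3 in replicate 2. It lay 56.1 kb from LINC01343 in the authors' annotation and 224 kb from POU3F1, a POU-homeodomain transcription factor gene. In contrast to the SORCS1 site it had another EP300 region 0.351 kb away and belonged to a cluster. The third, chr10:128539747-128541342, had 24.5 and 21.7 in replicates 1 and 2, nearest ENSG00000234640 at 220 kb and, among coding genes, MKI67, which encodes the proliferation antigen Ki-67, at 413 kb. The fourth, chr5:39787480-39788424, had 25.0 and 21.6, nearest INTS6P1 and the coding gene DAB2, an endocytic adaptor, at 363 kb. The fifth, chr7:25046972-25048069, had 23.2 and 21.0 and lay 65.4 kb from the start of OSBPL3, an oxysterol-binding protein gene, which was nearest in both annotations.

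The other 5 of the 10 highest regions had fold enrichment between 18.6 and 22.9 in replicate 1 and between 18.9 and 25.8 in replicate 2. The region at chr17:36807481-36809102 had 20.1 in replicate 1 and 25.8 in replicate 2, 128 kb from LHX1, a LIM-homeobox transcription factor gene, and had the highest -log10 q-value of the 10 in replicate 2, at 194. A region 545 kb from HS6ST1, a heparan sulfate sulfotransferase gene, at chr2:128864359-128865283, had 22.9 and 20.4. One 159 kb from ABHD5, a lipolysis activator, at chr3:43893780-43895195, had 19.2 and 21.6. The region at chr10:53599503-53600775 had 18.9 and 23.1, 202 kb from PCDH15, a protocadherin of the inner ear. The lowest of the 10, at chr2:163347882-163349021, had 18.6 and 18.9 and was nearest to FIGN, a microtubule-severing ATPase gene. All 10 were above the 98th percentile in both lists, and their summits in the 2 replicates lay between 0 and 70 bp apart.

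**Figure D1:**
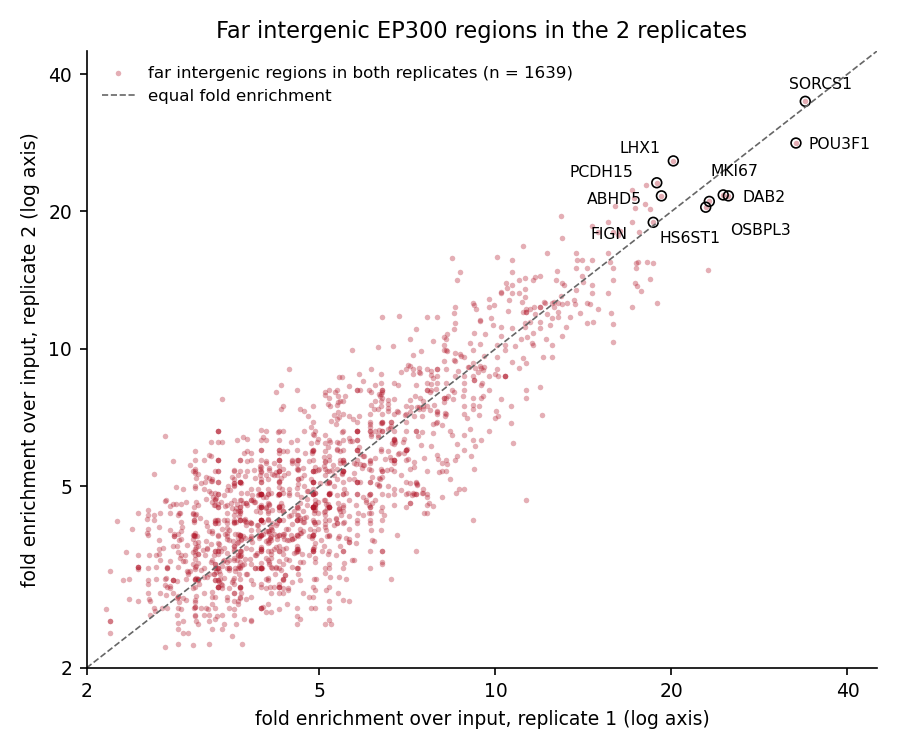
Fold enrichment over input of the 1639 reproducible far intergenic regions in replicate 1 (x axis) and replicate 2 (y axis), both on log axes. Each point is 1 region, the dashed line marks equal values, and the 10 highest-ranked regions are circled and named by their nearest coding gene, from SORCS1 at 33.9 and 34.9 down to FIGN at 18.6 and 18.9.

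Most far intergenic peaks were weaker than these. The median fold enrichment was 4.06 in replicate 1 (quartiles 3.36 to 5.36, range 2.16 to 33.9) and 4.16 in replicate 2 (3.33 to 5.41, range 2.10 to 34.9), a mean of 4.11 ± 0.0708 (SD, n = 2). Intergenic peaks up to 50 kb from a start, called near intergenic peaks here, had medians of 4.09 and 4.12 in the same order, so the direction of the difference was opposite in the 2 replicates. Promoter peaks had 5.67 and 5.71, and all peaks had 4.51 in both lists. A fold enrichment of at least 10 was reached by 160 far peaks (5.96%) in replicate 1 and 170 (6.48%) in replicate 2, against 6.70% and 6.67% of near peaks and 13.5% and 14.2% of all peaks.

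In how many of them reached the highest decile of the whole list, far peaks could not be told apart from near ones. The share was 4.06% of far peaks, against 4.66% of near peaks, in replicate 1 (difference -0.60 points, Newcombe 95% interval -1.38 to 0.29) and 4.84% against 4.47% in replicate 2 (0.37 points, -0.47 to 1.32). Both intervals include 0, and the far share was below the 16.6% and 16.7% of promoter peaks. Intervals on shares of peaks cover counting error only, since the peaks of 1 library are not replicates.

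Far intergenic peaks were narrower than near intergenic and promoter peaks, and as narrow as intron peaks. Their median width was 619 bp in replicate 1 and 640 bp in replicate 2, against 662 and 693 bp for near intergenic peaks and 930 and 975 bp for promoter peaks, and 615 and 643 bp for intron peaks. Together far peaks covered 2.06 Mb and 2.09 Mb. More than 1 summit was found in 9.95% of far peaks, against 13.8% of near peaks, in replicate 1 (difference -3.82 points, -5.06 to -2.50), and in 8.76% against 13.7% in replicate 2 (-4.97, -6.16 to -3.69). In intron peaks the shares were 10.5% and 10.4%. A few were broad: the widest region, chr2:128635425-128644762, spanned 9338 bp with 10 summits in each replicate and fold enrichment 17.4 and 15.0, and its nearest coding gene was HS6ST1 at 317 kb. The next widest were chr2:42920607-42927793 near HAAO, with 7187 bp and fold enrichment 11.9 and 11.4, and chr6:90670208-90675526 near MAP3K7, a TGF-beta-activated kinase gene, with 5319 bp and 17.8 and 13.4.

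Far intergenic peaks were found in the other replicate less often than EP300 peaks in general. Of them, 1712 of 2684 (63.8%, 61.9 to 65.6) in replicate 1 and 1695 of 2625 (64.6%, 62.7 to 66.4) in replicate 2 overlapped a peak of the other list by at least 1 bp, a mean of 64.2% ± 0.556 (SD, n = 2). Over all peaks the share was 74.5% in replicate 1 and 73.9% in replicate 2. Intron peaks were shared as seldom, at 62.6% and 62.0%, so a low share is not particular to far intergenic peaks. The difference from near intergenic peaks (68.8% and 68.7%) was -5.03 points in replicate 1 (-7.03 to -3.06) and -4.10 points in replicate 2 (-6.12 to -2.12). It was -4.37 and -3.74 points when near peaks were weighted to the fold enrichment of the far peaks decile by decile. When an overlap of 50% of both peaks was asked for, the interval included 0 in at least 1 replicate. The mean difference was then -1.81 points, and the intervals of the 2 replicates together ran from -4.10 to 0.48. The same held when only peaks of at least 5-fold enrichment were kept, with a mean of -3.17 points and intervals that together ran from -6.84 to 0.36. The 2 shares are not independent, since each counts the same overlaps from one side.

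How often a far intergenic peak recurred followed its strength, as it did for near intergenic and promoter peaks. In the lowest decile of the list by fold enrichment, 39.2% of far peaks were shared in replicate 1 and 41.6% in replicate 2. In the eighth decile the shares were 98.6% and 99.0%, and in the highest decile 109 of 109 and 127 of 127 far peaks were shared. The median shared far peak stood at 4.63-fold enrichment in replicate 1 and 4.73 in replicate 2, the median unshared one at 3.55 and 3.56. Near intergenic peaks had 4.68 and 4.68 when shared, and 3.47 and 3.46 when unshared. Over all peaks the medians were 5.37 and 5.42 for shared peaks, and 3.47 and 3.41 for unshared ones. Above the median of the whole list lay 143 of 972 unshared far peaks (14.7%) in replicate 1 and 113 of 930 (12.2%) in replicate 2. Unshared peaks above the median were not counted for the other classes.

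The strongest far intergenic peak without a counterpart was chrX:140273812-140274403 in replicate 1, with fold enrichment 8.24, and a peak of replicate 2 lay 0.768 kb from it. In replicate 2 it was chr4:11231144-11231954, with fold enrichment 8.11, nearest MIR572, and a peak of replicate 1 lay 3.09 kb from it. Neither strongest unshared peak was thus far from EP300 signal in the other replicate.

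**Figure D2:**
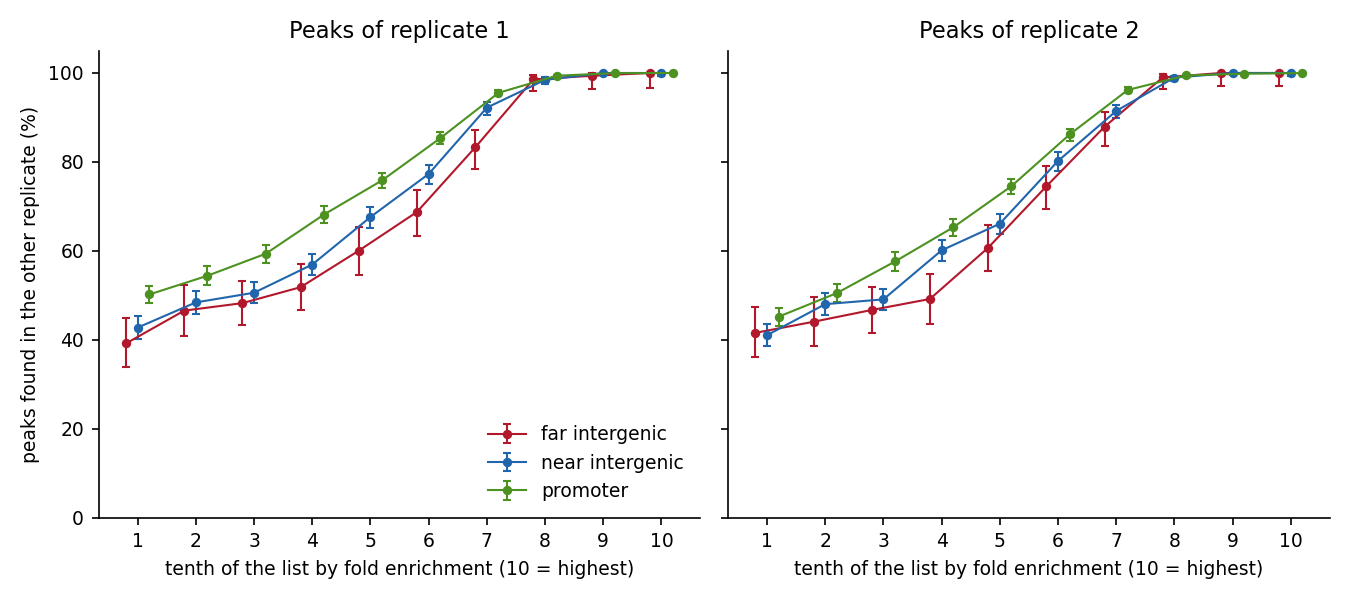
Share of peaks found in the other replicate (y axis, %) by decile of the list by fold enrichment (x axis, 10 highest), for far intergenic, near intergenic and promoter peaks, with Wilson 95% intervals as bars and 1 panel per replicate. Far intergenic peaks run from 39.2% and 41.6% in the lowest decile to 100% in the highest, and the 3 classes meet from the eighth decile up.

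Among the 1639 reproducible far intergenic regions, the summits of the 2 replicates lay a median of 71 bp apart, and within 100 bp in 999 regions (61.0%). The share within 100 bp was 59.0% for near intergenic regions and 65.5% for all reproducible regions. Fold enrichment was higher in replicate 2 for 839 far regions (51.2%, against 52.5% of all regions) and in replicate 1 for 800. In 13 far regions (0.793%, against 0.772% of all regions) it differed more than 2-fold. Across these regions log2 fold enrichment had a Pearson correlation of 0.83 and a Spearman correlation of 0.745 between replicates, a description over regions that were kept because both lists contain them and that, by the peak names, were called against input in both. The Pearson and Spearman correlations were 0.841 and 0.758 for near intergenic regions, and 0.894 and 0.863 for all reproducible regions. The median length of far regions was 900 bp, against 994 bp for near intergenic regions, and 89 far regions (5.43%) ranked in the highest decile. That share was 5.37% for near regions and 11.3% for all regions.

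The median fold enrichment lay between 4.05 and 4.16 in every distance range. The median far peak lay 79.1 kb from the nearest annotated start in replicate 1 and 79.7 kb in replicate 2, and the most distant lay at 725 kb. Between 50 and 100 kb there were 1849 and 1790 peaks, with median fold enrichment 4.05 and 4.16. Between 100 and 200 kb there were 663 and 680, with 4.08 and 4.13, and over 200 kb there were 172 and 155, with 4.10 and 4.16. The shared share in these bins was 64.9%, 61.7% and 59.9% in replicate 1, and 66.4%, 59.3% and 66.5% in replicate 2. Peaks lay upstream of the nearest start in 48.0% of cases in replicate 1 (46.1 to 49.8) and 47.4% in replicate 2 (45.5 to 49.3).

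At the 50 kb limit itself, the member nearest to it was 50014 bp from CWC22 in replicate 1, with fold enrichment 5.17, and 50011 bp from ENSG00000250082 in replicate 2, with 5.06. Just outside, peaks lay 49991 bp from ENSG00000287823, with 4.58, and 49995 bp from ENSG00000227459, with 2.99.

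The most remote regions were of ordinary strength. The farthest, chr10:39508117-39508584, lay 725 kb from the nearest annotated start and 1105 kb from the next EP300 region, with fold enrichment 4.63 in replicate 1 and 3.96 in replicate 2. Next came chrX:99163919-99165072, 492 kb away and nearest among coding genes to PCDH19, a protocadherin gene, with 6.01 and 4.63. A region at chr13:82164890-82165614, 475 kb away and 1712 kb from SLITRK1, a neuronal membrane protein gene, had 5.19 and 4.21. Regions 410 kb and 403 kb from their nearest starts lay near ALCAM, a cell adhesion molecule gene, at chr3:104956572-104957309 with 3.06 and 3.12, and at chr3:104905993-104906597 with 7.02 and 6.01. All 5 ranked below the 70th percentile.

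Far intergenic regions stood apart from other EP300 sites. The median gap to the next reproducible region of any class was 16.6 kb, against 3.97 kb for near intergenic regions and 5.82 kb for all regions. A gap of over 50 kb surrounded 543 far regions (33.1%, 30.9 to 35.4), against 8.65% of near regions (8.07 to 9.28) and 14.1% of all regions. Over 100 kb from any other region lay 314 far regions (19.2%), against 3.98% of near ones. The distance rule itself keeps these regions away from start sites, where EP300 regions are dense, and the part of the rule in the larger gaps was not tested.

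**Figure D3:**
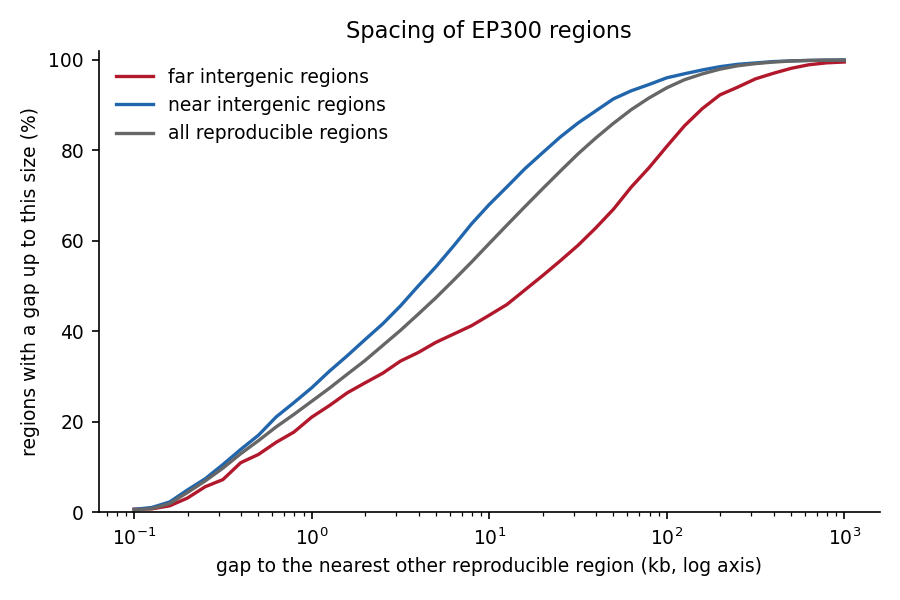
Share of regions (y axis, %) whose gap to the nearest other reproducible EP300 region is at most the value on the x axis (kb, log axis), for far intergenic, near intergenic and all reproducible regions. The curve of far regions lies below the others at gaps over 1 kb, and its median of 16.6 kb stands against 3.97 kb for near regions and 5.82 kb for all.

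Other far intergenic regions came in clusters. With regions up to 12.5 kb apart stitched, the 1639 regions formed 1173 clusters, of which 932 were single regions and 110 held 3 or more. Those 110 clusters held 445 regions (27.2%). Clusters of the other classes were not counted. A reproducible region of any class lay within 12.6 kb of 45.9% of far regions, against 71.9% of near regions and 63.5% of all regions. Close spacing was thus less common among far regions than among the others.

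The largest cluster, with 12 regions over 35.5 kb at chr1:5745951-5781425, lay 81.4 to 115 kb from NPHP4, a gene of the primary cilium. Its regions had fold enrichment 3.24 to 9.37 in replicate 1 and 2.86 to 8.96 in replicate 2, so none was among the strongest. A cluster of 10 regions at chr6:169984191-170036355 lay 203 to 246 kb from its nearest coding genes. ERMARD was nearest, except for the region chr6:170035425-170036355, which was nearest to DLL1, a Notch ligand gene. Fold enrichment in this cluster was 3.26 to 8.16 in replicate 1 and 2.92 to 7.79 in replicate 2. The 10 regions at chr18:78703183-78743048, nearest SALL3, a spalt-type zinc finger transcription factor gene, had 2.73 to 17.4 and 2.73 to 15.4. In that cluster 1 region, chr18:78718506-78722001, carried the highest value in both replicates, and the other 9 were at most 7.95 in replicate 1 and 9.17 in replicate 2.

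The cluster near POU3F1 at chr1:38265082-38293130 held 8 regions, of which the second-ranked region of all, at 32.7 and 28.3, was the highest. Its neighbour at chr1:38268143-38270580 had 13.7 and 16.2, and the others were between 4.18 and 10.6 in replicate 1 and between 3.01 and 7.12 in replicate 2. The 8 regions at chr14:95944001-95969206 were more even, at 4.18 to 10.7 and 3.92 to 11.1. Their nearest coding gene was TUNAR, 18.4 to 42.6 kb away, which was first described as a long non-coding RNA gene. In 4 of the 5 clusters the highest region was the same in both replicates, as the plot of the 5 largest clusters shows.

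**Figure D4:**
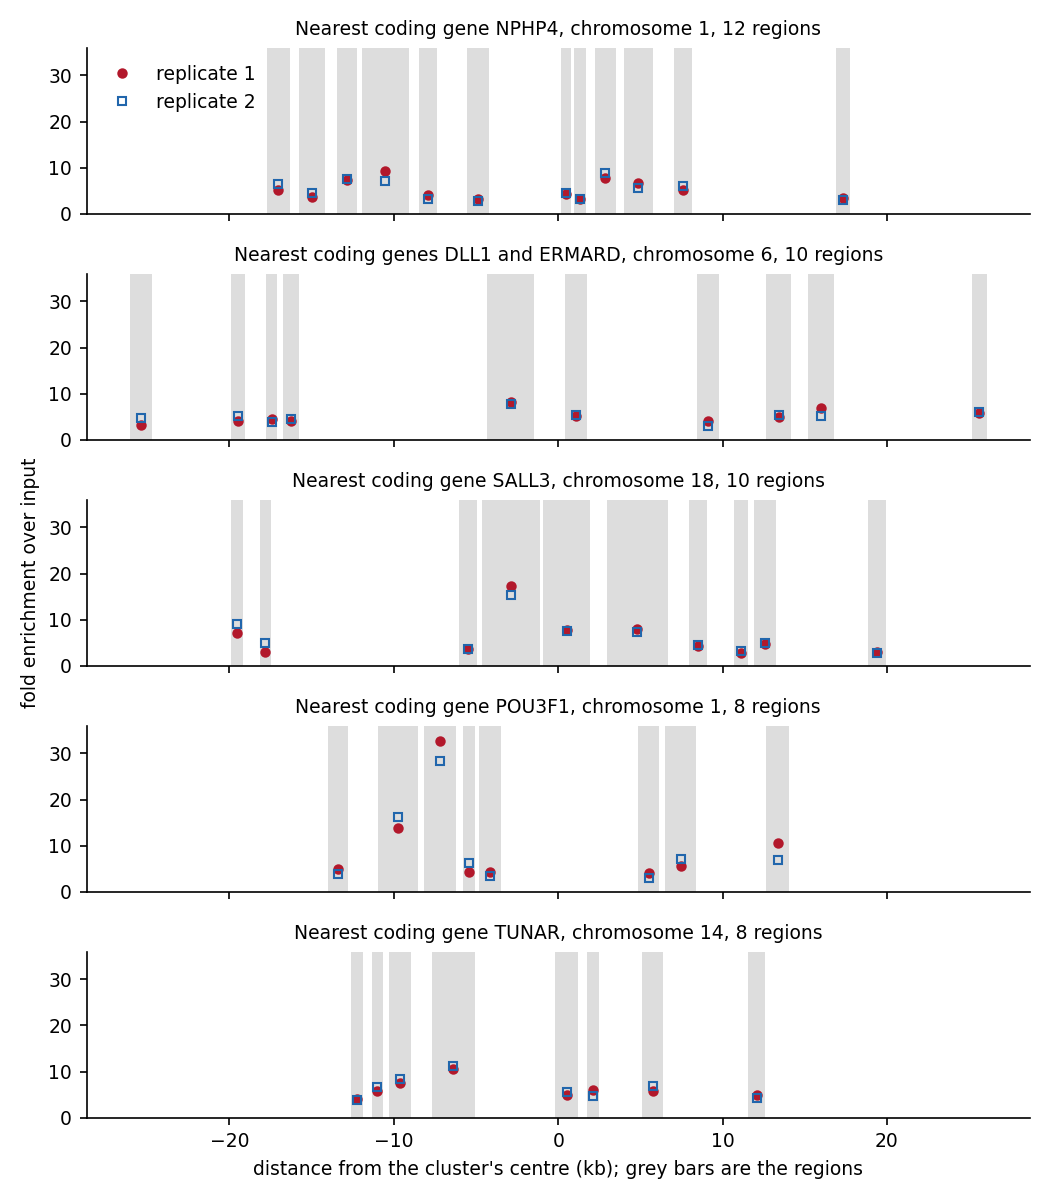
The 5 largest clusters of far intergenic regions, 1 panel each. Grey bars are the regions by distance from the cluster's centre (x axis, kb), and filled circles and open squares give the fold enrichment over input in replicates 1 and 2 (y axis, from 0). The POU3F1 cluster peaks at 32.7 and 28.3 and the SALL3 cluster at 17.4 and 15.4, and the NPHP4 cluster stays at or below 9.37.

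Fewer than 1 in 4 of the nearest annotated genes carried a RefSeq coding symbol. In the authors' annotation, 974 genes were nearest to the 1639 regions, and 382 of them, with 692 regions, have an Ensembl identifier and no gene name. Another 89 LINC genes held 167 regions, 111 small RNA or microRNA genes held 174, and 177 others, pseudogenes included, held 250. RefSeq coding symbols accounted for 215 genes with 356 regions. These kinds were read from the gene names alone. The same split was not made for near intergenic or all regions, so it is not shown to be particular to far regions. Most regions were assigned to ENSG00000266273 on chromosome 18 (13 regions), to TCP10L3, ENSG00000286295 and ENSG00000287823 (12 each), to ENSG00000234640 (11) and to LINC02572 (10). CHST15, a chondroitin sulfotransferase gene, ENSG00000236513, ENSG00000236948 and LINC01377 had 9 each.

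Many of the regions were remote from RefSeq coding genes. The median distance to the nearest coding gene was 150 kb, against 26.0 kb for near intergenic regions. Over 50 kb from a coding gene lay 88.2% of far and 31.1% of near regions. The 50 kb limit that separates them is measured to any annotated start, and its part in this contrast was not tested. Over 500 kb away lay 221 far regions (13.5%). Within 50 kb of a coding gene body lay 193 regions, 25 of them inside a RefSeq coding gene, although the authors' annotation calls all of them intergenic. Some RefSeq gene, mostly an lncRNA (203 regions), overlapped 229 regions (14.0%).

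As nearest coding gene, 748 of the 19974 coding genes (3.74%) had at least 1 region. Their median distance to neighbouring coding genes was 752 kb, against 35.7 kb for the other coding genes. The regions were chosen far from any start, and the part of that choice in this contrast was not tested. Of the 748 genes, 404 had 1 region and 76 had 5 or more, and those 76 held 561 regions. SALL3 had the most, 20 regions between 114 and 750 kb away, followed by MKI67 with 18 between 304 and 589 kb, NPHP4 with 18 between 63.9 and 447 kb, and ERMARD with 14. TCERG1L and TTLL2 had 13 each, RAB6C, a Rab GTPase gene, had 12, and BUD13, HS6ST1, IRX2 and TNRC6C had 11 each.

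A handful of pluripotency genes were the nearest coding gene of a far intergenic region. In the authors' annotation, where 1.08% of RefSeq coding genes were named as nearest gene of a region, the count was 0 of 20 genes for shared pluripotency and 0 of 20 for naive pluripotency. By nearest coding gene it was 3 of 20 (15%) and 2 of 20 (10%), above the 3.74% of all coding genes. DPPA4, ZFP42 and PODXL had 1 region each, and the region of ZFP42, which encodes the stem cell zinc finger protein REX1, had fold enrichment 4.10 in replicate 1 and 5.47 in replicate 2. KLF4, a Krüppel-like reprogramming factor, had 2 regions, the higher-ranked 248 kb away with 5.87 and 5.59. TFAP2C, a transcription factor of naive cells, also had 2, the higher-ranked 220 kb away with 9.18 and 5.45.

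Genes of primed pluripotency were nearest in 2 of 20 cases in the authors' annotation and in 4 of 20 (20%) by nearest coding gene. STC1, a secreted glycoprotein gene, had 5 regions with fold enrichment 5.14 to 6.94 in replicate 1 and 3.13 to 6.26 in replicate 2. CD24, a cell surface glycoprotein gene, had 4 with 3.74 to 5.40 and 3.56 to 6.23, SOX11 had 3 and FAT3 had 1. The values of these genes overlap those of the naive and shared genes.

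Developmental regulators and adhesion genes were the nearest coding gene of 64 and 84 regions. The counts by nearest coding gene are read against 3.74% of all coding genes, and those by the authors' annotation against 1.08%. Of 60 developmental regulators, 4 were nearest in the authors' annotation, among them TBX5 with 2 regions and SOX5 with 1, and 19 (31.7%) were nearest coding genes, with 64 regions. SALL3 held 20 of these, IRX2, an Iroquois homeobox gene, 11 and IRX1, of the same family, 3. The highest-ranked region of IRX2, 348 kb away, had 17.5 in replicate 1 and 15.5 in replicate 2. Of 62 adhesion and guidance genes, 7 were nearest in the authors' annotation and 33 (53.2%) by coding gene, with 84 regions. PCDH15 had 9, and EPHA3, an ephrin receptor gene, NLGN4X, a neuroligin gene, and PCDH11X, a protocadherin gene, had 5 each.

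Of 18 trophectoderm genes 1 (TP63, 5.56%) was nearest in either annotation, with 1 region, and of 17 primitive endoderm genes 0 were. With 1.08% and 3.74% of all coding genes nearest, lists of this size show nothing particular. The lists differ in how much open space their genes have, with a median distance to neighbouring coding genes of 2369 kb for adhesion and guidance, 960 kb for developmental regulators, 300 kb for primed, 72.7 kb for shared and 48.4 kb for naive pluripotency genes, 199 kb for primitive endoderm and 87.1 kb for trophectoderm. The part of that spacing in the counts was not tested. Being the nearest gene says nothing on which gene a region acts on.

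By chromosome, the X had the highest share of far intergenic regions. There, 137 of 1451 reproducible regions were far intergenic (9.44%, 8.04 to 11.1), against 1502 of 44812 on autosomes (3.35%, 3.19 to 3.52), a difference of 6.09 points (Newcombe 95% interval 4.68 to 7.71). The X held 8.36% of all far intergenic regions, 4.55% of near intergenic regions and 3.14% of all reproducible regions. Near intergenic regions were thus over-represented there too, to a lesser degree. The median far region on the X had fold enrichment 4.85 (replicate 1) and 4.83 (replicate 2), with 4.70 and 4.78 on autosomes. The share of X far peaks that were shared was 65.5% in replicate 1 and 63.3% in replicate 2, against 63.6% and 64.7% on autosomes, with overlapping intervals.

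Among autosomes, the far share ran from 0.166% on chromosome 19 (4 of 2406 regions, 0.0647 to 0.427) to 5.65% on chromosome 18 (4.30 to 7.39). Chromosome 19 has 24.8 RefSeq coding genes per Mb, chromosome 18 has 3.36, chromosome 13 has 2.96 with a far share of 5.49%, and the X has 5.43. Chromosome 10, with 5.49 coding genes per Mb, close to the X, had a far share of 5.31% (4.46 to 6.32). In number, chromosome 2 had most regions, with 158, and per Mb chromosome 20 had most, with 0.979, ahead of chromosome 10 with 0.890 and the X with 0.878. The part of gene density in these shares was not tested.

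**Figure D5:**
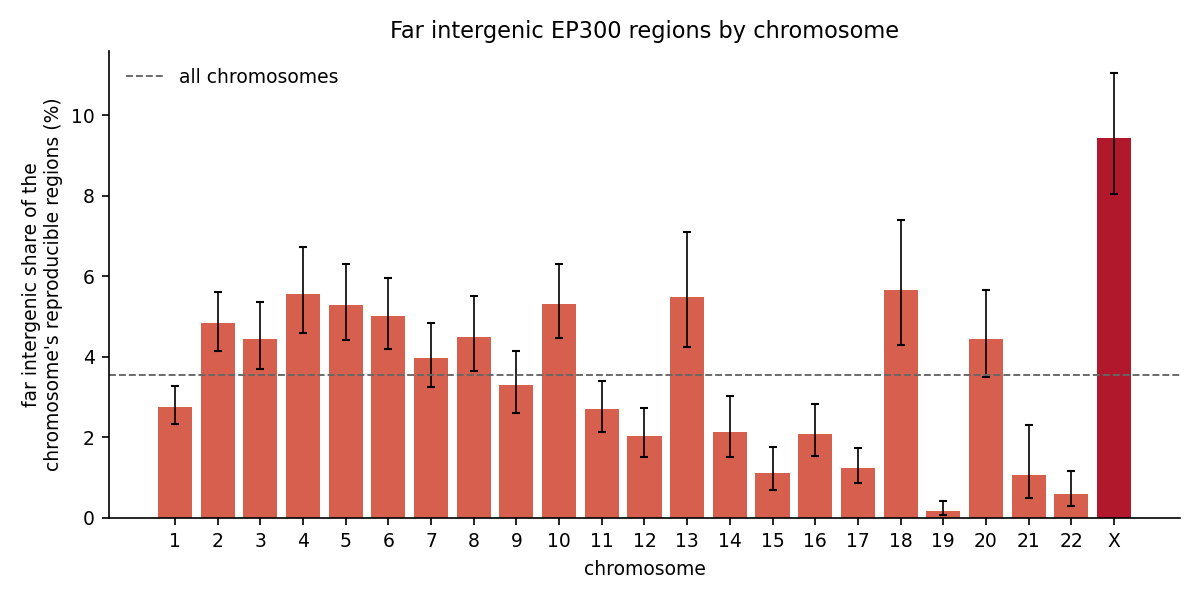
Far intergenic share of each chromosome's reproducible EP300 regions (y axis, %, from 0), with Wilson 95% intervals as bars. The dashed line is the share over all chromosomes, the X (dark bar) stands highest at 9.44%, and chromosome 19 is lowest at 0.166%.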

How the data were processed

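The peaks of the 2 EP300 samples were analysed, and the input library was not analysed here. Per the submitters' processing notes, fastp 0.19.11 and GRCh38 were used. The aligner and peak caller were not given in the sources used here. By the peak names, the authors called peaks per sample against input. Per the file headers, each deposited row gives 1 summit with its fold enrichment, a ratio, its -log10 p-value, its -log10 q-value, and the width and distance to a transcript start in bp. The deposited score was not used. The largest q was 0.0497 in replicate 1 and 0.0498 in replicate 2.

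Rows of 1 interval were joined and kept the highest values. Far and near intergenic peaks, shared peaks (1 bp) and reproducible regions were found with Python 3.11.15, pandas 2.3.3 and NumPy 2.4.6, and the overlap and interval code was tested on simulated data. Gene positions came from RefSeq (GRCh38.p14). The design has 1 group, so no test between groups was made. Shares have Wilson and differences have Newcombe 95% intervals. The tables hold no counts, so the depth behind the fold enrichment is unknown. The authors' values depend on their caller and its threshold, which are not stated.

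The members and the 7 gene lists were chosen with earlier results of these data known. Named are the 10 highest-ranked, 5 farthest and 3 widest regions, the 5 largest clusters, the 10 genes nearest to most regions, up to 4 genes per list, the peaks beside the 50 kb limit and the strongest unshared peaks. Other genes were named after their values were seen, and a few that the rule selects are not reported here. Nearest coding genes, weighting by fold enrichment and leaving out the X were added after seeing the data. The sequence content of summits was not analysed here.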

Additional observations from a re-analysis of the deposited data

Results flagged for a closer look

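Peaks on unplaced sequences stood outside the comparisons, which used chromosomes 1 to 22 and X, and drew attention as signal in data not otherwise used. Replicate 1 had 45 such peaks, of which 11 met the far intergenic rule, with fold enrichment 2.66 to 18.6. Replicate 2 had 42, of which 9 met it, with fold enrichment 2.90 to 15.4.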

How the results depend on the processing

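The mean share of far intergenic peaks found in the other replicate was 64.2%, and it was 54.1% with 50% reciprocal overlap, 72.1% with a fold enrichment of at least 5, 66.1% with a -log10 q-value of at least 5, 61.0% beyond 100 kb and 67.7% with every deposited row kept. Under the first 2 settings the interval of the difference from near intergenic peaks included 0 in at least 1 replicate, with mean differences of -1.81 and -3.17 points. The far share of all peaks, 4.08%, was 2.89% and 3.32% under the fold enrichment and q-value limits, 1.28% beyond 100 kb and 3.69% with every row kept, and the limits on peaks left 566, 868 and 494 of 1639 regions, since fewer peaks enter. Median width was 677.5 bp with every row kept, since wide peaks fill several rows. Stitching at 5 kb put 19.3% of regions, in place of 27.2%, in clusters of 3 or more, and 3 of the 5 largest clusters overlapped one of the 5 largest at 12.5 kb. Of the 10 highest regions, 6 were also among the 10 highest by q-value. Each replicate taken alone had shares of 63.8% to 64.6% and differences of -5.03 to -4.10 points. Median fold enrichment was 4.06 to 4.16, width 619 to 640 bp and the far share 4.04% to 4.11%. These are the values per replicate given above, not a recalculation. The shares and differences still rest on overlap with the other list, so they are no check on it. No paired analysis was possible because the study has 1 group of EP300 samples and the input has no table here. Sequence windows of 50 bp around summits were not run. Read depth is unknown, so no limit that it sets can be given.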

Other observations

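The end of the long arm of chromosome 10 held several groups of far intergenic regions, chosen here after their values were seen. MKI67 had 18 regions as nearest coding gene, TCERG1L 13, PPP2R2D, a regulatory subunit gene of protein phosphatase 2A, 9 and CHST15 9. Their highest regions had fold enrichment 24.5 in replicate 1 and 21.7 in replicate 2 for MKI67, 18.4 and 14.2 for TCERG1L, 10.2 and 10.7 for PPP2R2D, and 12.8 and 14.8 for CHST15.

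In the authors' annotation WNT7A had 6 regions, with highest values of 7.21 in replicate 1 and 4.78 in replicate 2, and FGF18 had 6, with 11.6 and 12.3. BMP7 was the nearest coding gene of 7 regions, 173 to 261 kb away, with highest values of 7.94 and 5.87. These genes were also chosen after their values were seen.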
